A study of Mus musculus with 22 samples.

Results

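Gene expression of young renal capsule was compared between 4 RNA-seq libraries titled RCAMs and 3 libraries of capsule tissue, together 7 of the 22 libraries of the series. A library entered by its title, and the rule uses no measured value. The renal capsule is the fibrous sheath that wraps the kidney. RCAM is not spelled out in the labels, which give renal capsule as the tissue and whole tissue as the cell type of these libraries. The series text, in contrast, speaks of dissected capsules that were in part sorted for macrophages by FACS. All 7 libraries came from young mice with no treatment, and the sources used here give no age, strain, sex or sort gate. Whether replicates were separate animals is not stated. The p-values therefore cover no more than the scatter among these libraries, which may be technical. Aged capsule tissue (3 libraries) and aged RCAMs (4) served as a second pair, and macrophages of the capsule and of the kidney (4 each) complete the series.

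The labels describe 2 ways of making libraries without assigning either to a sample. One is a stranded mRNA kit fed with 100 ng of RNA. The other amplifies full-length cDNA from as little RNA as 2 ng. The RCAM and the tissue side may thus differ in library kit, and with 1 kind of material on each side, effects of the kit and of the cells cannot be told apart.

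Resident macrophages of connective tissue lie along vessels and nerves, clear dead cells, debris and iron, and depend on the growth factor receptor Csf1r. Around them a capsule holds fibroblasts and their collagen, a flat mesothelial covering, fat, blood and lymph vessels, nerve fibres and, where cortex clings to the sheath, kidney tubules. A transcript made by macrophages alone is expected to exceed the tissue level by the factor shared by other macrophage transcripts. A transcript made by other cells alone is expected near 0 in sorted macrophages. In bulk RNA, fewer cells of a type and less RNA per cell cannot be told apart.

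Total counts were 20.6 to 22.2 M (1e6) per library in capsule tissue and 49.8 to 54.4 M in RCAMs. Pearson's r of log2 CPM (counts per 1e6 counts) across the 17491 tested genes was 0.957 to 0.978 between capsule libraries, 0.971 to 0.977 between RCAM libraries and 0.640 to 0.653 between the 2 sides. Mitochondrial transcripts took 31690 to 62970 CPM of capsule libraries and 883 to 1618 CPM of RCAM libraries.

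How reads were assigned to overlapping genes differed between the 2 sides, and this limits which genes can be compared. Of 733 tested genes whose exons lie wholly inside the span of a gene on the opposite strand, and inside none on the same strand, 80.3% (589 genes) had 0 counts in all 4 RCAM libraries and 1.64% (12 genes) had 0 counts in all 3 capsule libraries. Of 10633 tested genes with no exon overlap, 2.45% and 1.06% had 0 counts. The median log2 fold change of RCAMs over capsule tissue was -9.05 in the former class and -0.0013 in the latter. For partial overlap with the opposite strand only, it lay between these values from 10% upward and was 0.11 below 10%. B2m, the light chain of MHC class I molecules that nearly all cells make, is such a nested gene, and was listed at 0 counts in all 4 RCAM libraries and at 1346, 1158 and 1441 CPM in the capsule libraries. In the files, 6516 genes lie wholly inside the span of opposite-strand genes, whatever their overlap on the same strand. They summed to 25350 to 27940 CPM in the 6 capsule tissue libraries of both ages. In all 16 RCAM and macrophage libraries they summed to 1693 to 2293 CPM. Whether kit, strand setting or counting rule underlies this split was not tested. A gene is called clear below when under 10% of its exon bases lie inside another annotated gene, which held for 13142 tested genes. Counts for lists are given over clear genes, and other genes are named as overlapping and uncertain.

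**Figure D1:**
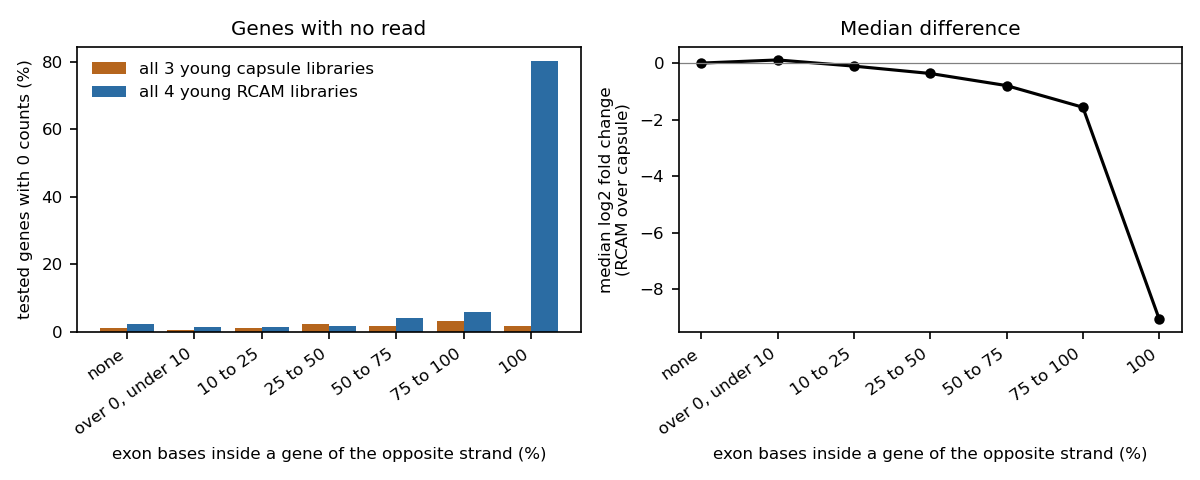
Share of tested genes with 0 counts in every library of a side (left, percent, bars) and median log2 fold change of young RCAMs over young capsule tissue (right, line), by the percent of a gene's exon bases inside a gene on the opposite strand. Genes inside such a gene over their whole exon length stand apart, with 80.3% at 0 counts in all 4 RCAM libraries and a median of -9.05.

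The 2 sides differed in most of the transcriptome. By edgeR's quasi-likelihood test at an adjusted p under 0.05, 75.9% of 17491 tested genes differed: 6165 (35.2%) were higher in RCAMs and 7110 (40.6%) were lower. Among clear genes, 5020 (38.2%) were higher and 4900 (37.3%) lower, with a median log2 fold change of 0.03. These shares are the background for every list count below. A test against a 4-fold change left 1281 clear genes higher (9.75%) and 2473 lower (18.8%). The 4-fold test over all genes gave 1649 (9.43%) and 3869 (22.1%). Groups did not overlap for 6297 genes higher (36.0%) and 7235 lower (41.4%). With library totals alone in place of TMM factors, the median of all genes moved from -0.135 to -0.396, a shift that applies to the fold changes of single genes below. CPM of single genes below are scaled by TMM factors. Sums over lists use unscaled library totals and run over every clear member in the files, tested or not.

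The ETS factor PU.1 (gene Spi1) binds purine-rich elements in many macrophage promoters, so promoter letters were described. The octamer GAGGAAGT, a PU.1-type element, was searched on both strands of RefSeq promoter windows of build GRCm38.p6 that run from 250 bases before to 50 after a gene's start. Windows on a single chromosome were left out of the search, so genes there are not counted and the shares are not genome-wide. The octamer was found in 1052 of 32851 windows searched (3.2%). Of clear genes with a window, it was present for 75 of 910 more than 4-fold higher in RCAMs (8.24%), 45 of 1707 more than 4-fold lower (2.64%) and 231 of 6706 others (3.44%). It was found for 2 of 11 pan-macrophage genes (C1qc and Ctss) and 2 of 15 resident macrophage genes (Pf4 and Retnla), 3 of 14 lysosomal, 2 of 22 phagocyte receptor, 1 of 12 lipid and 2 of 6 neutrophil genes. It was found for 0 of 11 macrophage transcription factors, 0 of 5 MHC class II genes and 0 of 8 iron genes. A match is a description of letters and not of a bound site. The 250 bases before the RefSeq start of 3 of these genes are shown, 5′ to 3′ on the strand of the gene. The octamer is in capitals, in its reverse complement form. C1qc encodes a chain of complement C1q, Pf4 a chemokine shared by platelets and resident macrophages, and Retnla a secreted protein of alternatively activated macrophages. Their windows lie at chr4:136892915-136893164 (minus strand), chr5:90772185-90772434 (plus strand) and chr16:48842359-48842608 (plus strand). GENCODE places the starts of C1qc (136893065) and Retnla (48842551) further upstream, so these 2 gene spans reach into their windows.
C1qc: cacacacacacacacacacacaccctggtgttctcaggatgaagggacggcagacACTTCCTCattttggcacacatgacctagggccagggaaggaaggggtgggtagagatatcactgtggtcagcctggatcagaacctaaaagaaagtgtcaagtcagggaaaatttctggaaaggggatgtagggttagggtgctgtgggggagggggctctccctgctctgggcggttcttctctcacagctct
Pf4: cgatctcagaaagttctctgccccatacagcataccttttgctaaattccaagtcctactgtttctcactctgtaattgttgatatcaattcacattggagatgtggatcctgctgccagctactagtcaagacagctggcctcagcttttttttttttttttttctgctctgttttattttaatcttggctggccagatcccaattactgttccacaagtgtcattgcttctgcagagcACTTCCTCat
Retnla: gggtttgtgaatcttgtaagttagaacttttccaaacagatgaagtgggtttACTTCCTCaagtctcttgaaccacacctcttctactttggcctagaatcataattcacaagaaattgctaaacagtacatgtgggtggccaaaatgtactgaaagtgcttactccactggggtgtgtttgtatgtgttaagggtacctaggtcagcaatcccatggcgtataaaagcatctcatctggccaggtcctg

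Transcripts that define macrophages stood well above the tissue level in every RCAM library. All 15 clear pan-macrophage genes were more than 4-fold higher in RCAMs (background 9.75%), with log2 fold changes of 2.96 to 4.38 and ratios of 7.78 to 20.8 (median 14.1). Adgre1, the F4/80 surface antigen (chromosome 17, 57358691 to 57483527 in GRCm38), stood at 2329, 1878, 2086 and 1875 CPM in RCAM replicates 1 to 4 and at 143, 75.4 and 175 CPM in capsule replicates 1 to 3, which gave a log2 fold change of 3.96 ± 0.31 (± SE, by edgeR at an adjusted p of 9.36e-06). Cd68, a lysosomal glycoprotein, stood at 1609, 1359, 1348 and 1487 CPM against 72.3, 53.1 and 98.8 CPM (4.28 ± 0.25, edgeR adjusted p = 2.24e-06). The lowest RCAM library exceeded the highest capsule library for both genes, and capsule replicate 2 was the lowest tissue library for both. C1qa, the A chain of C1q, was at 3709 ± 239.6 CPM in RCAMs (SD, n = 4) and 405 ± 153 CPM in tissue (SD, n = 3). Csf1r, whose exons overlap an opposite-strand gene over 15.1% of their length, was at 8889 ± 822 and 319.5 ± 99.1 CPM (4.80 ± 0.29, edgeR adjusted p = 2.68e-06). Itgam overlaps other genes more widely and was listed at 0 in the tissue.

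Summed over the 15 clear genes, pan-macrophage transcripts took 35430 to 37340 CPM in RCAMs and 3325, 2173 and 4457 CPM in capsule replicates 1 to 3. The 2 sides did not overlap, and the ratio of the means was 11 (exact permutation p = 0.0571, 2-sided, the smallest that 3 against 4 libraries allow). The tissue level of the single genes was 4.8 to 12.9% of the RCAM level (median 7.09%). This range of log2 fold changes, 2.96 to 4.38, is called the pan-macrophage range below. It also held 676 of all 13142 clear genes (5.14%), and 339 more (2.58%) lay above it.

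Genes of resident, scavenging macrophages followed the same scale. All 17 clear members were more than 4-fold higher in RCAMs, 15 of them within the pan-macrophage range and Cd163 and Retnla above it. Lyve1, a hyaluronan receptor of vessel-associated macrophages and of lymphatic endothelium (chromosome 7, 110850607 to 110863239), stood at 1907, 1510, 1326 and 1637 CPM in RCAMs and 95.9, 63.4 and 134 CPM in tissue (4.03 ± 0.30, edgeR adjusted p = 6.67e-06). Cd163, the scavenger receptor for haemoglobin, was at 2346 ± 243 and 100.1 ± 37.7 CPM (4.55 ± 0.30). Neither gene's groups overlapped. The mannose receptor Mrc1 had a log2 fold change of 4.19 ± 0.23, the phosphatidylserine receptor Timd4 4.14 ± 0.32 and Retnla 4.42 ± 0.31. The folate receptor Folr2, overlapping over 63.1% of its exons, had 3.45 ± 0.25. Fcna, F13a1, Gas6 and Maf also overlap other genes, and Fcna was listed at 0 in all RCAM libraries.

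MHC class II transcripts, which present antigen to helper T cells, moved on the same scale. All 7 clear members were higher, 6 of them in the pan-macrophage range and H2-Ob below it. Their sum was 51540 to 59340 CPM in RCAMs and 4423, 2476 and 5250 CPM in capsule replicates 1 to 3. H2-Ab1, a beta chain, was at 12650 ± 783 and 612 ± 213 CPM (4.37 ± 0.31, edgeR adjusted p = 5.29e-06). Of 28 clear phagocyte receptor genes 26 were higher, 17 of them within the range. Among the 17, Fcgr1 and Mertk are also on the pan-macrophage list and so lie within the range by construction. C5ar1, the receptor for complement C5a, lay above it at 1379, 1047, 1223 and 1303 CPM against 28, 17.1 and 34.3 CPM (5.55 ± 0.29), and no RCAM value came near a tissue value. The exceptions were the fatty acid transporter Cd36 (-0.32 ± 0.18, edgeR adjusted p = 0.14) and the receptor kinase Tyro3 (-2.49 ± 1.27, 0.107), which did not pass. Tyro3 was at -3.31 without RCAM replicate 1, still not past the threshold. Cd36 was past it by DESeq2 (-0.43) and with library totals (-0.59).

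Monocyte receptors were present beside resident ones. Ccr2, the chemokine receptor of recruited monocytes, was at 672, 826, 634 and 543 CPM in RCAMs and 51.5, 34.1 and 67.7 CPM in tissue (3.71 ± 0.28), and Cx3cr1, the fractalkine receptor, at 396, 228, 406 and 236 and 24.4, 12.2 and 31.9 CPM (3.79 ± 0.40). Both lay in the pan-macrophage range, and the RCAM values of Cx3cr1 fell at 2 levels, replicates 1 and 3 above 2 and 4. Of 12 clear monocyte genes 5 were higher and 5 lower, near the shares over all clear genes (38.2% and 37.3%). Ly6c2, a marker of inflammatory monocytes in a family of near-identical genes, was lower (-1.46 ± 0.43, 1.37 ± 0.767 and 3.78 ± 0.466 CPM). The haptoglobin gene Hp, also made by fat, was lower (-6.78 ± 0.29). The neutrophil marker S100a9 was low on both sides, at 0.174 ± 0.206 and 2.03 ± 0.993 CPM (-3.52, and -4.62 without RCAM replicate 4). Mmp9, a gelatinase listed with the neutrophil genes, was at 2626 ± 486 and 101 ± 34.9 CPM (4.70 ± 0.31), and Csf3r, the receptor of G-CSF, had 4.19 ± 0.31. Of 11 clear dendritic cell genes 8 were higher (38.2% over all clear genes), 2 lower (37.3%) and 1 did not pass. In all RCAM libraries 1 of the 11 had 0 counts. Among the 8 were the growth factor receptor Flt3 (2.63 ± 0.24) and the conventional dendritic cell factor Batf3 (4.07 ± 0.30).

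**Figure D2:**
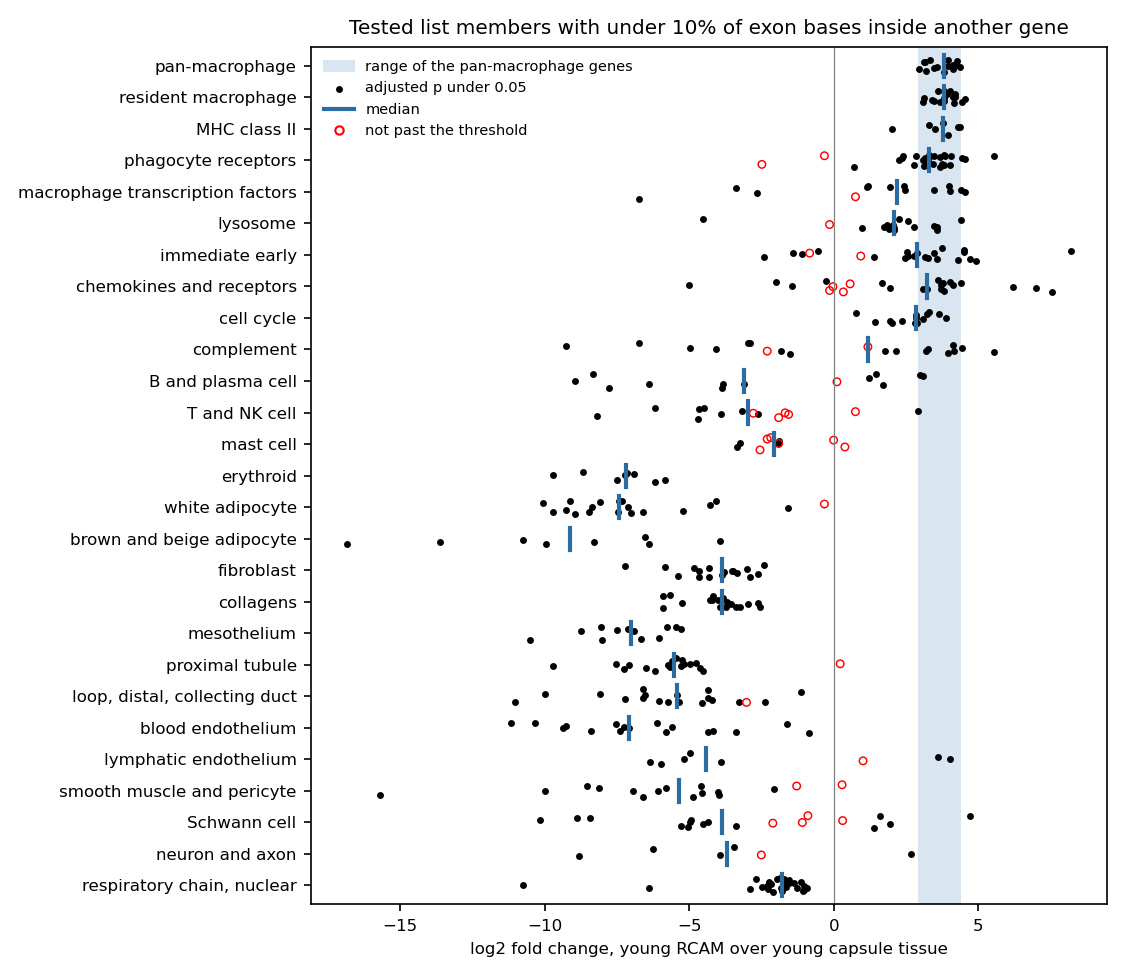
Log2 fold change of young RCAMs over young capsule tissue (x axis) for each tested clear gene of 27 lists (rows); filled points passed the adjusted p of 0.05, hollow points did not, bars are list medians and the shaded band is the pan-macrophage range of 2.96 to 4.38. Macrophage and MHC class II genes fall in or near the band, whereas fat, fibroblast, mesothelial, tubule and vessel genes lie mostly left of 0.

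Lineage factors of macrophages were higher, but several listed factors were not particular to them. Of 14 clear factors 10 were higher (38.2% over all clear genes), 3 lower (37.3%) and 1 did not pass. Spi1, which encodes PU.1, was at 545, 532, 482 and 512 CPM in RCAMs and 23.8, 15.8 and 34 CPM in tissue (4.40 ± 0.27, edgeR adjusted p = 2.98e-06). The groups were far apart, and the fold change lay just above the pan-macrophage range. Nr1h3, the oxysterol receptor LXR alpha, was lower in RCAMs at 13.5, 15.8, 13.3 and 11.9 CPM against 82, 93.5 and 80.8 CPM (-2.65 ± 0.13, edgeR adjusted p = 1.17e-06). Gata6, a factor of peritoneal macrophages and mesothelium (-3.39 ± 0.49), and Sall1, a factor of kidney mesenchyme (-6.75 ± 1.24), were lower too. Irf4 did not pass (0.75 ± 0.45), with capsule replicate 2 (119 CPM) as high as the RCAM libraries (102, 93.5, 98.7 and 118 CPM). Without that library Irf4 passed at 1.68. Sall1 rested on few counts and was at -10.43 without RCAM replicate 2.

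Lysosomal and lipid-handling transcripts were shared with the tissue. Of 16 clear lysosomal genes 14 were higher in RCAMs with a median log2 fold change of 2.07, 3 of them within the pan-macrophage range. Ctsc, a cathepsin that activates granule proteases, was the only one above it (4.39 ± 0.27). Psap, the precursor of the saposins that help to digest lipids, had 1.90 ± 0.17, and Npc2, a lysosomal cholesterol carrier, did not pass (-0.14 ± 0.13, edgeR adjusted p = 0.333) except with library totals (-0.41). Ctsk, a collagen-degrading cathepsin of osteoclasts and fibroblasts, was lower at 1.78 ± 0.544 against 41.2 ± 8.53 CPM (-4.53 ± 0.29). Apoe, the lipid carrier, was at 18980, 14660, 14410 and 17370 CPM in RCAMs and 2485, 2776 and 2582 CPM in tissue (2.65 ± 0.20). Set against pan-macrophage transcripts of the same library, however, Apoe was lower in RCAMs, 364 to 455 CPM per 1000 CPM against 634 to 1408 in tissue. Of 15 clear cholesterol and lipid genes 9 were higher and 2 lower (Nr1h3 and Fabp5), against 38.2% and 37.3% of all clear genes. Trem2, the lipid receptor, had 3.24 ± 0.24. Among 11 clear iron genes 7 were higher, against 38.2% of all clear genes, with the iron exporter Slc40a1 at 3.29 ± 0.23. The metalloreductase Steap4, abundant in fat, was lower (-4.71 ± 0.37).

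Immediate early genes, which cells switch on within minutes of a stimulus such as tissue dissociation, were uneven. Of 23 clear members 17 were higher (38.2% over all clear genes) and 4 lower (37.3%). Of the higher ones 5 exceeded the pan-macrophage range (2.58% over all clear genes). Fos, a subunit of the AP-1 factor (chromosome 12, 85473890 to 85477273), stood at 1927, 1325, 1005 and 1158 CPM in RCAMs and 4.99, 3.67 and 5.1 CPM in tissue, or 8.20 ± 0.34 on the log2 scale (edgeR adjusted p = 8.41e-07). Junb, its partner, was at 733, 649.8, 446 and 547 and 19.2, 19.2 and 19.8 CPM (4.94 ± 0.21), and the phosphatase gene Dusp1 at 733 ± 176 and 32 ± 4.5 CPM (4.52 ± 0.24). RCAM replicate 1 was the highest for all 3 genes, and no group overlapped. Nr4a1, an orphan nuclear receptor of the same early class, went the other way with 51.6, 31.7, 37.8 and 33.1 CPM in RCAMs and 208, 314 and 94.2 CPM in tissue (-2.41 ± 0.37, edgeR adjusted p = 0.000407). Fosl2 (-1.10 ± 0.14), Klf4 (-0.53 ± 0.15) and Nr4a3 (-1.41 ± 0.53) were lower as well. Nr4a3 no longer passed without capsule replicate 1 or 2 or without RCAM replicate 1, 2 or 4, at log2 fold changes of -1.39, -0.83, -1.23, -1.42 and -1.26.

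The same genes were set against the summed pan-macrophage transcripts of their own library, a ratio that no scaling between libraries enters. Fos took 27.2 to 46.2 CPM per 1000 pan-macrophage CPM in RCAMs and 1.25 to 1.86 in tissue, a ratio of the means of 21.2. For Junb the ratio was 2.13 and for Dusp1 1.61, with no overlap of the groups for either. Such ratios were not particular to early genes. C5ar1 (3.55), Csf2ra (2.54), Retnla (1.60) and H2-Ab1 (1.57) were also higher in RCAMs without overlap. Jun (0.938; it overlaps other genes) and Egr1 (0.478) overlapped between the groups. For Lyve1 the ratio of the means was 1.24 (35.9 to 45.7 against 32.1 to 33.0), with no overlap. For Ccr2 it was 0.989 (14.1 to 20.5 against 16.6 to 17.5), with overlap. C1qa was lower in RCAMs on this scale (87.6 to 104 against 131 to 139), as was Apoe, given above. Fos, Nfkbid, an inhibitor of NF-kB (ratio 16.7), and the chemokine Ccl4 (10.2) were more than 10-fold higher on it, as was Cxcl2 (11.9). Whether sorting, kit or cell state goes with these values was not tested.

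**Figure D3:**
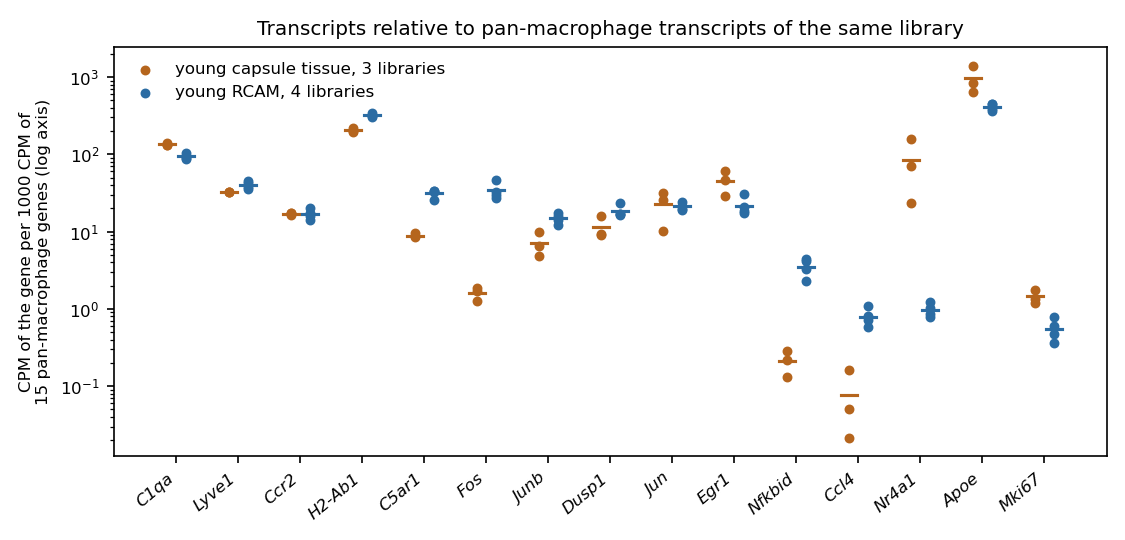
CPM of each gene per 1000 CPM of the 15 clear pan-macrophage genes of the same library (y axis, log scale) in 3 young capsule libraries and 4 young RCAM libraries; points are libraries and bars are group means. For Ccr2 and for Lyve1 the means of the 2 sides lie within 1.5 times of each other, Fos is 21.2 times higher in RCAMs and Nr4a1 is lower.

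Chemokines fell into macrophage and stromal ones. Of 23 clear genes of chemokines and their receptors 15 were higher (38.2% over all clear genes) and 4 lower (37.3%). Ccl4, an attractant of lymphocytes and monocytes, was at 33.3, 28.8, 39.9 and 22.4 CPM against 0.473, 0.0426 and 0.206 CPM (7.0 ± 0.52), and the neutrophil attractant Cxcl2 at 14.9, 29.3, 31.3 and 23.5 against 0.215, 0.171 and 0 CPM (7.57 ± 0.60). No RCAM value of either overlapped a tissue value, and Cxcl2 had no counts in capsule replicate 3. Ccl8 (3.10 ± 0.46), Ccl9 (3.23 ± 0.29) and Ccl24 (4.41 ± 0.24) were at or near the macrophage range. Ccl11, the eosinophil attractant eotaxin (-5.02 ± 0.29), Cx3cl1, the ligand of Cx3cr1 (-2.0 ± 0.36), and Cxcl14 (-1.44 ± 0.45) were lower in RCAMs, and so was Cxcl12, a stromal retention signal (-0.25 ± 0.10, edgeR adjusted p = 0.04). Cxcl12 lost its call without any single library other than capsule replicate 3 (-0.18 to -0.24), and Cxcl14 lost it without capsule replicate 3 (-1.25). Without capsule replicate 1 Ccl4 was at 7.92, and without capsule replicate 3 Ccl8 was at 3.83 and Cxcl2 at 6.98.

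Ligands and receptors lay on opposite sides for some pairs and on the same side for others. Of 37 clear genes listed as ligands or receptors 15 were higher (38.2% over all clear genes) and 18 lower (37.3%). Csf1, the growth factor that sustains macrophages, was at 121, 78 and 95.3 CPM in tissue and 23.7, 18.5, 21.6 and 22.9 CPM in RCAMs (-2.18 ± 0.16, edgeR adjusted p = 7.58e-06). Il34, the alternative ligand of Csf1r, was at 22.1 ± 4.4 CPM in tissue and 0.458 ± 0.371 CPM in RCAMs (-5.58 ± 0.65), with 31.2% of its exons overlapped. The receptor Csf1r stood on the RCAM side, as did Csf2ra, a chain of the receptor for GM-CSF, at 403, 457, 328 and 397 against 12.5, 9.17 and 12.1 CPM (5.14 ± 0.19). Vegfa, the vessel growth factor, was at 96.6 ± 37.1 CPM in tissue and 0.905 ± 0.555 CPM in RCAMs (-6.74 ± 0.50), and its endothelial receptor Kdr likewise on the tissue side (-4.36 ± 0.24). The platelet-derived growth factor receptors Pdgfra (-3.53 ± 0.24) and Pdgfrb (-4.01 ± 0.37) were lower in RCAMs, and the ligand Pdgfc was higher (0.69 ± 0.18). Tgfb1 (2.30 ± 0.14) and its receptor Tgfbr2 (1.84 ± 0.17) were both higher. Axl, a receptor for apoptotic cell bridges, was at 663, 608, 709 and 558 and 494, 269.9 and 414 CPM (0.69 ± 0.21, edgeR adjusted p = 0.0146), a level that both sides shared more closely than that of its relative Mertk (3.13 ± 0.13). With library totals neither Axl nor Pdgfc passed (0.43 for each).

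Complement components lay on both sides. Of 19 clear genes 9 were higher and 8 lower, near the shares over all clear genes (38.2% and 37.3%). The C1q chains, the properdin gene Cfp (4.17 ± 0.31) and C4b (3.28 ± 0.22) were on the RCAM side. C3, the central component, was at 369.9, 464, 379 and 295 CPM in RCAMs and 3617, 2414 and 2887 CPM in tissue (-2.98 ± 0.21), and Serping1, the inhibitor of C1, had -4.08 ± 0.30. Cfd, the fat-derived factor D also called adipsin, had -9.28 ± 0.63.

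White fat had the highest sum in tissue of the 15 lists plotted by library. Of 19 clear white adipocyte genes 18 were lower in RCAMs (background 37.3%), 17 of them more than 4-fold (background 18.8%), with a median log2 fold change of -7.43. Adipoq, the hormone adiponectin (chromosome 16, 23146536 to 23158028), stood at 2041, 2963 and 1835 CPM in capsule replicates 1 to 3 and 3.72, 1.3, 4.64 and 1.1 CPM in RCAM replicates 1 to 4 (-9.72 ± 0.63, edgeR adjusted p = 3.83e-06). Plin1, a coat protein of fat droplets, was at 1099 ± 431 CPM in tissue and 4.58, 1.28, 1.12 and 0.85 CPM in RCAMs (-9.13 ± 0.71), with replicate 1 the highest RCAM library (-9.95 without it). The fatty acid carrier Fabp4 was at 5711 ± 2735 and 16 ± 2.36 CPM (-8.48 ± 0.38). Capsule replicate 2 was the highest tissue library for all 3 genes. Fabp5, its relative, was low on both sides (6.85 ± 3.42 and 1.89 ± 0.803 CPM, -1.85 ± 0.46); near-identical copies of it exist, so its counts are uncertain. Cd36 did not pass, and Lpl, lipoprotein lipase, was lower by less than the other members (-1.59 ± 0.32, 2848, 4682 and 2035 CPM against 1040, 1508, 881 and 814 CPM). The 20 clear members in the files summed to 51580, 90310 and 38170 CPM in tissue and to 2949 to 3603 CPM in RCAMs, 5.36% of the tissue mean, and Cd36 and Lpl made up most of the RCAM sum.

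Brown and beige fat transcripts were nearly confined to the tissue among these 7 libraries. All 8 clear members that were tested were more than 4-fold lower in RCAMs. The 10 clear members in the files summed to 1133, 2427 and 637 CPM in tissue and 2.63 to 4.2 CPM in RCAMs, or 0.237% of the tissue mean (0.374% without capsule replicate 2). Ucp1, the uncoupling protein that makes heat (chromosome 8, 83290352 to 83298452), was at 275, 687 and 209.9 CPM in tissue with 0 counts in all RCAM libraries. That is at least 24830-fold lower, taking a floor of 3 counts over the RCAM group, and at least 15420-fold without capsule replicate 2. Cox8b, a muscle and brown fat subunit of cytochrome oxidase, was at 316, 597 and 169 CPM against 0.124, 0.282, 0.407 and 0 CPM (-10.76 ± 0.75). Tissue replicate 2 was again the highest and replicate 3 the lowest for both genes.

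**Figure D4:**
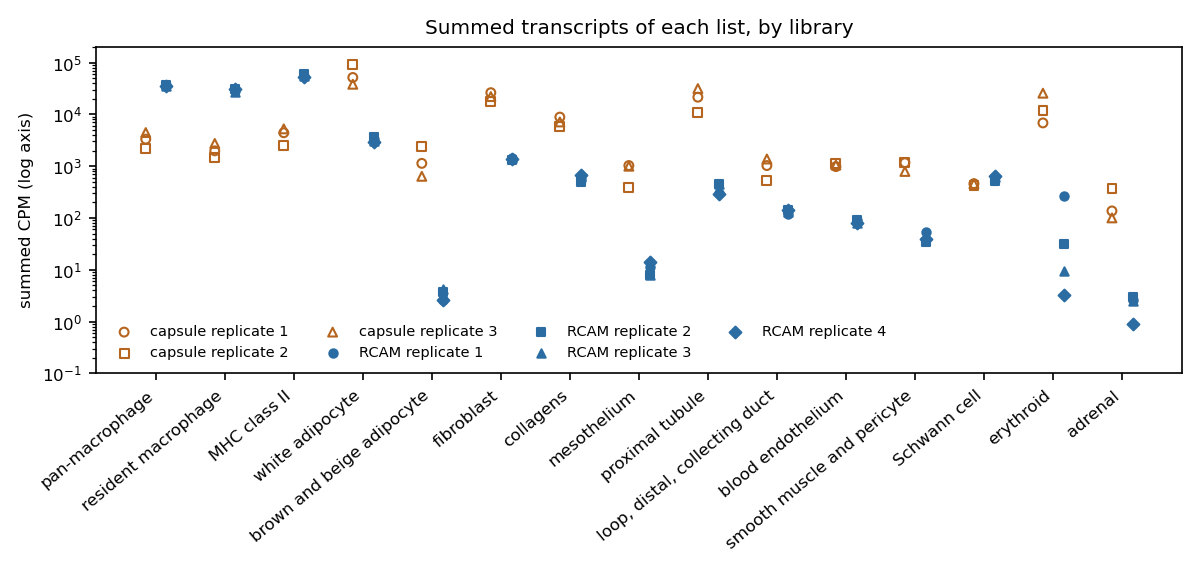
Summed CPM over the clear genes of 15 lists (x axis) in each young capsule library (open symbols) and each young RCAM library (filled symbols), on a log scale. Macrophage lists are higher in all 4 RCAM libraries, and erythroid transcripts range from 3.2 to 270.8 CPM among the RCAM libraries. The Schwann cell list is at 527 to 632 CPM in RCAMs and 422 to 459 CPM in tissue. Pmp22 and Mbp make up most of its RCAM sum, and 10 of its 18 tested clear members are lower in RCAMs.

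Fibroblast and collagen transcripts belonged to the tissue side, though at a smaller distance than fat. All 17 clear fibroblast genes were more than 4-fold lower in RCAMs (median log2 fold change -3.88), and all 19 clear collagen genes were lower, 18 of them more than 4-fold (median -3.86). Pdgfra, the receptor that marks fibroblasts, was at 523, 252 and 388 CPM in tissue and 31.4, 32.5, 31.1 and 39.6 CPM in RCAMs (-3.53 ± 0.24, edgeR adjusted p = 4.67e-06). Dcn, the proteoglycan decorin, was at 4746, 2497 and 4100 and 188, 142, 231 and 193 CPM (-4.33 ± 0.27), and Col1a1, the main chain of type I collagen (chromosome 11, 94936224 to 94953042), at 995, 636 and 914 and 69.6, 50.9, 67.8 and 98.2 CPM (-3.57 ± 0.25). No groups overlapped. RCAM replicate 4 was the highest RCAM library for Pdgfra and Col1a1, and replicate 3 for Dcn. Pi16, a marker of adventitial fibroblasts, had -4.68 ± 0.24. The fibroblast list summed to 17990 to 26240 CPM in tissue and 1305 to 1419 CPM in RCAMs (6.22%), and the collagens to 5732 to 8861 and 494 to 666 CPM (8.09%).

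Genes that remodel matrix divided between the sides. Of 20 clear members 13 were lower (37.3% over all clear genes) and 5 higher (38.2%) in RCAMs. The inhibitor Timp2 was higher (1.04 ± 0.23), as were Mmp9 (4.70 ± 0.31), Tgfbi (2.71 ± 0.25), Plod1 (1.94 ± 0.12) and Mmp13 (2.92 ± 0.44). The gelatinase Mmp2 (-2.80 ± 0.17), the membrane protease Mmp14 (-3.35 ± 0.24) and the crosslinking oxidase gene Lox (-2.58 ± 0.30) were lower. Timp1, Timp3, Timp4 and Mmp19 overlap other genes and were listed at 0 in RCAMs.

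Mesothelial and tubule transcripts were on the tissue side. All 12 clear mesothelial genes were more than 4-fold lower in RCAMs (median -7.03). Msln, the surface protein mesothelin, was at 94.5, 37.3 and 71.7 CPM in tissue and 0.599, 0.108, 0 and 0.319 CPM in RCAMs (-8.03 ± 0.74, edgeR adjusted p = 2.3e-05). Upk3b, a uroplakin of mesothelium, was at 147, 22.7 and 138 CPM in tissue and 0.24 ± 0.288 CPM in RCAMs (-8.74 ± 0.98). Capsule replicate 2 was the lowest tissue library for both. Few RCAM counts lie behind these values, and they moved to -8.83 for Msln without RCAM replicate 1 and to -9.76 for Upk3b without RCAM replicate 2.

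Of 18 clear proximal tubule genes 17 were more than 4-fold lower (median -5.54), and they summed to 21480, 11010 and 31490 CPM in tissue and 292 to 445 CPM in RCAMs (1.74%). Kap, an androgen-regulated kidney protein, was at 10470, 4365 and 16870 CPM in tissue and 8.8, 15.8, 16.8 and 8.8 CPM in RCAMs (-9.72 ± 0.61), and Lrp2, the endocytic receptor megalin, had -7.55 ± 0.85. Slc34a1, the phosphate transporter, overlaps another gene over 11.7% of its exons and had -4.64 ± 0.61 (1235, 469.7 and 2191 CPM against 32.4, 95.3, 50.6 and 29.8 CPM). The exception was Gatm, an enzyme of creatine synthesis, at 177, 70.1 and 362 and 241, 211, 291 and 206 CPM (0.22 ± 0.45, edgeR adjusted p = 0.668). Of 6 clear podocyte genes 4 were lower (37.3% over all clear genes) and 2 higher (38.2%). Among the latter was Ptpro (4.13 ± 0.19), a phosphatase also made by macrophages.

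Of 19 clear genes of the loop, distal tubule and collecting duct 18 were lower. The sodium transporter Slc12a1 did not pass (-3.02 ± 1.57): it was at 0, 1.84, 0 and 16.2 CPM in RCAMs, high in replicate 4, and 42.3, 11 and 56.3 CPM in tissue. Umod, the urinary protein uromodulin, overlapping over 46.6% of its exons, was highest in the same RCAM library (0.103, 2.34, 0 and 7.72 CPM, -6.49 ± 1.31). Without RCAM replicate 4, Slc12a1 passed at -5.84 and Umod was at -8.08. Gatm passed without capsule replicate 3 (0.94) and was at -0.18 without capsule replicate 2, and without replicate 3 Slc34a1 was at -4.03. The 6 tested clear adrenal genes were all lower. The 12 clear members in the files summed to 137, 367 and 100.3 CPM in tissue and 0.904 to 3.01 CPM in RCAMs, or 1.13% of the tissue mean (1.92% without capsule replicate 2). The steroid enzyme Hsd3b1 stood at 1.29, 39.5 and 1.07 CPM in capsule replicates 1 to 3 and at 0 counts in all RCAM libraries, with replicate 2 far above the others.

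Vessel transcripts were lower in RCAMs, with a few shared genes. All 17 clear blood endothelial genes were lower, 14 of them more than 4-fold (median -7.09), and summed to 981 to 1133 CPM in tissue and 78.9 to 92.3 CPM in RCAMs (8.09%). Cdh5, the cadherin of endothelial junctions, was at 133, 163 and 105 CPM in tissue and 0.268, 0.91, 1.22 and 0.765 CPM in RCAMs (-7.40 ± 0.41, edgeR adjusted p = 1.96e-06). Pecam1, a junction protein also present on leukocytes, was at 86.9, 122 and 107 and 6.75, 4.29, 5.38 and 6.91 CPM (-4.17 ± 0.20). The groups of neither gene overlapped. Eng, a TGF-beta coreceptor of endothelium and macrophages, was at 115, 98 and 155 and 75.2, 68.4, 62.7 and 66.6 CPM (-0.85 ± 0.16) and supplied most of the RCAM sum.

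The lymphatic list was divided. Lyve1 and Stab1 (3.62 ± 0.25), shared with macrophages, were higher in RCAMs, while Flt4, the VEGF-C receptor (-6.36 ± 1.13), Pdpn (-5.19 ± 0.31), Nr2f2 (-5.99 ± 0.24), Mmrn1 (-3.89 ± 1.32) and Fxyd6 (-4.96 ± 0.29) were lower. Flt4 was at -9.35 without RCAM replicate 2. Mmrn1 lost its call without capsule replicate 1 (-4.00) or 3 (-3.18), and was at -5.04 without RCAM replicate 1. Prox1, the master factor of lymphatic identity, was low and did not pass, at 1.47, 2.27, 3.38 and 3.53 CPM in RCAMs and 1.29, 0.64 and 2.02 CPM in tissue (1.01 ± 0.50, edgeR adjusted p = 0.0949). It passed without capsule replicate 3 (1.47) or RCAM replicate 1 (1.26). Of 16 clear smooth muscle and pericyte genes 14 were lower (median -5.34). Acta2, smooth muscle actin, was at 279, 147 and 169.9 CPM in tissue and 3.08, 1.34, 1.96 and 1.87 CPM in RCAMs (-6.59 ± 0.35). Rgs5, a regulator marking pericytes, was at 166, 292 and 81.1 CPM with 0 counts in all RCAM libraries, at least 11420-fold lower.

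Nerve transcripts were mixed. Of 18 clear Schwann cell genes 10 were lower (37.3% over all clear genes) and 4 higher (38.2%) in RCAMs. The lineage factor Sox10 was at 0.688, 0.981 and 0.576 CPM in tissue and 0.0207, 0, 0 and 0.0638 CPM in RCAMs (-4.95 ± 0.91, edgeR adjusted p = 0.0012). The sodium channel gene Scn7a (-4.97 ± 0.51) and the nerve growth factor receptor Ngfr (-4.51 ± 0.40) were lower too. Without RCAM replicate 4, Sox10 was at -6.14. On the RCAM side were Pmp22 (1.38 ± 0.14), Mbp (1.59 ± 0.12), L1cam (1.93 ± 0.18) and Mag, a myelin adhesion protein, at 13.4, 20.8, 15.1 and 13.3 CPM against 0.602, 0.725 and 0.453 CPM (4.72 ± 0.30). With these members the list summed to more in every RCAM library, 527 to 632 CPM, than in tissue, 422 to 459 CPM, at a ratio of 1.34 (exact permutation p = 0.0571, the smallest possible). Of the mean RCAM sum of 598 CPM, Pmp22 took 446 and Mbp 114 CPM, unscaled. The sum thus does not stand for Sox10, Scn7a and Ngfr, which were lower. Mbp is known to share its locus with transcripts of blood-forming cells. Of 6 clear neuronal genes, 4 were lower, against 37.3% of all clear genes. Among the 4 were the axonal growth gene Gap43 (-3.94 ± 1.19) and the tubulin regulator Stmn2 (-6.25 ± 1.07). The synaptic vesicle gene Syt1 was higher at 0.29 ± 0.0984 against 0.0426 ± 0.0739 CPM (2.68 ± 1.02). Gap43 lost its call without capsule replicate 1 (-3.70) and was at -5.77 without RCAM replicate 4. Stmn2 was at -9.06 without RCAM replicate 1. Syt1 lost its call without capsule replicate 1 (2.14) or 3 (2.12) and was at 6.54 without capsule replicate 2.

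Blood cells other than macrophages differed in direction. All 8 clear erythroid genes were more than 4-fold lower in RCAMs, with a median of -7.19, or -7.03 with the 2 members at 0 counts in RCAMs set to their bound. Hbb-bs, a beta-globin, was at 4382, 7646 and 16570 CPM in tissue and 179.7, 20.4, 6.54 and 1.79 CPM in RCAMs (-7.51 ± 1.60, edgeR adjusted p = 0.00263), and RCAM replicate 1 stood far above the other RCAM libraries. Without it the log2 fold change was -9.91, and without capsule replicate 3 -6.85. Globin genes have near-identical copies, so counts per copy are uncertain. Of 13 clear B and plasma cell genes 5 were higher, near the 38.2% of all clear genes, and 7 lower, against 37.3%. Ighm, the heavy chain of IgM, was at 1292, 1057, 1034 and 1209 CPM in RCAMs and 130.1, 135 and 166 CPM in tissue (3.0 ± 0.16, edgeR adjusted p = 1.71e-06), with no overlap. The B cell receptor chain Cd79a was lower (-3.09 ± 0.40, 0.3 ± 0.0809 and 2.59 ± 0.385 CPM). Of 14 clear T and NK cell genes 8 were lower, against 37.3% of all clear genes. Only Cd4, which mouse macrophages can also carry, was higher (2.90 ± 0.39). Of 10 clear mast cell genes 4 were lower, near the 37.3% of all clear genes, and 0 higher. Of 9 clear platelet genes only Pf4, the chemokine named above, passed, and it was higher (3.48 ± 0.25).

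Proliferation and respiration genes separated the sides. All 14 clear cell cycle genes were higher in RCAMs, with the proliferation antigen Mki67 at 19.6, 31.9, 21.9 and 13.8 CPM against 5.25, 2.69 and 4.9 CPM (2.35 ± 0.35, edgeR adjusted p = 0.000382). Per 1000 pan-macrophage CPM, Mki67 was lower in RCAMs (0.357 to 0.791) than in tissue (1.20 to 1.78). All 26 clear nuclear genes of the respiratory chain were lower, 5 of them more than 4-fold (median -1.80). Of 12 clear mitochondrially encoded genes 11 were lower, with mt-Co1, a cytochrome oxidase subunit, at 213 ± 47.1 and 4463 ± 1516 CPM (-4.39 ± 0.29).

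Among clear genes whose log2 CPM averaged 5 or more, the 10 highest fold changes towards RCAMs were those of Mir142hg, the host gene of a blood-cell microRNA (8.91 ± 0.59), Fos, Nfkbid (7.63 ± 0.43), the sugar transporter Slc2a6 (6.01 ± 0.46), C5ar1, the leukotriene enzyme Alox5 (5.25 ± 0.24), Gapt (5.25 ± 0.18), Csf2ra, the GTPase Gbp2b (5.12 ± 0.71) and the leukotriene B4 receptor Ltb4r1 (5.07 ± 0.26). The 10 lowest, towards the tissue, were those of Ucp1, Rgs5, the tubule transporter Slc22a7, Klhdc7a (-12.59 ± 0.77), the fat activin receptor Acvr1c (-12.39 ± 0.48), Cox8b, Clstn3 (-10.39 ± 0.86), the droplet coat gene Plin4 (-10.05 ± 0.48), the vessel wall adhesion gene Mcam (-10 ± 0.74) and the fatty acid importer Cpt1b (-9.97 ± 0.85). Without 1 library, Mir142hg moved to 9.77 (capsule replicate 2), Nfkbid to 8.25 (capsule replicate 3), Klhdc7a to -15.67 (RCAM replicate 2), Acvr1c to -13.23 and Clstn3 to -12.78 (RCAM replicate 4), Cpt1b to -10.94 (RCAM replicate 4) and Mcam to -10.82 (RCAM replicate 3). Without capsule replicate 2, Klhdc7a was at -12.00, Clstn3 at -9.67 and Cpt1b at -9.15. Slc22a7 was at 177, 53.1 and 142 CPM with 0 counts in RCAMs, at least 7869-fold lower. Without the condition on overlap, all 10 genes towards the tissue lay wholly inside a gene on the opposite strand, Txnip and B2m among them.

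The aged pair of libraries gave a comparison with other samples. Of 17595 genes tested there, 5664 were higher in aged RCAMs (32.2%) and 6767 lower (38.5%) than in aged capsule tissue. Of 12900 genes called in the young pair and tested in the aged pair, 10816 were called in the same direction and 27 in the opposite one. All 15 clear pan-macrophage genes were higher in the aged pair too, with a median log2 fold change of 2.90 against 3.82 in the young pair. Aged capsule tissue held 4456 to 11970 CPM of these transcripts, and aged RCAMs 36870 to 39920 CPM. The white adipocyte median was -6.68 against -7.43, the fibroblast median -2.46 against -3.88 and the blood endothelial median -4.33 against -7.09.

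The change of the contrast with age was tested as an interaction. It passed for 952 of 18856 genes (5.05%), 589 of them with a higher fold change in the aged pair and 363 with a lower one, and for 775 of 13134 clear genes (5.90%). This count was unstable: DESeq2 gave 2304, a replicate block 3, and leaving out 1 library gave 282 to 1594. Without capsule replicates it was 327 (young 1), 282 (aged 1) and 1594 (aged 3), without young RCAM replicates 1 to 4 it was 566, 633, 524 and 491, and without aged RCAM replicates 1, 3 and 4 it was 518, 574 and 495. Of 541 clear list genes tested, 71 passed, and for 66 of these the young fold change was the larger in size. Over all 541, it was the larger for 403, with a median size of 3.51 in the young and 2.73 in the aged pair. Ighm was among those that passed, with a log2 fold change of 3.0 ± 0.16 in the young pair and -1.02 in the aged pair (interaction -3.95, edgeR adjusted p = 1e-05). Its level was 1663 CPM in aged RCAMs and 3364 CPM in aged tissue.

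**Figure D5:**
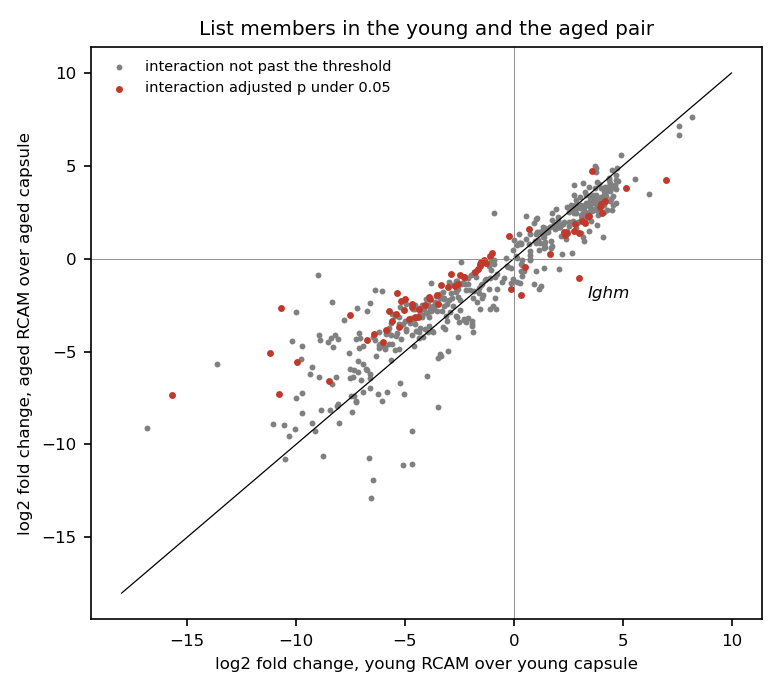
Log2 fold change of RCAMs over capsule tissue in the aged pair (y axis) against the young pair (x axis) for 541 clear list genes; red points passed the interaction test at an adjusted p of 0.05 and the line marks equal values. The young value is the larger in size for 403 of the 541 genes, and Ighm is above 0 in the young and below 0 in the aged pair.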

How the data were processed

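Bulk RNA of 7 mouse libraries was compared, 4 young RCAM and 3 young capsule tissue libraries, with 14 libraries in the fits of both ages. The deposited files hold 1 whole-number count per gene, which the authors obtained from reads of build GRCm38, per the submitters' processing notes. No aligner, counting program or strand setting is named in the sources used here. Of 52636 genes, 52489 matched GENCODE release M21, which gave symbols, coordinates and overlaps.

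The tests on counts used edgeR 4.0.16 under R 4.3.3 (quasi-likelihood F test, TMM scaling, filterByExpr, Benjamini-Hochberg adjustment, threshold 0.05), with glmTreat for changes beyond 4-fold. DESeq2 1.42.0 and limma 3.58.1 were alternatives. CPM of single genes are scaled by TMM factors, while sums over genes and ratios within a library use unscaled library totals. Errors of fold changes are SE. On simulated counts for 17235 genes of this contrast, 55 of 100 genes changed 2-fold and 100 of 100 changed 8-fold were recovered, and 4 of 17035 unchanged genes were called. The simulation gave both sides the same mean profile apart from the changed genes, and the same dispersion for all genes. The real sides differed in most genes and in spread, so these rates need not hold for the real contrast. Folds against a group at 0 counts use a floor of 3 counts over the group, which covers counting error only.

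The comparison and the gene lists were chosen with earlier results of these data known, and the limit of 10% on exon overlap was set after the counts were seen. Named genes are the 10 highest and 10 lowest called fold changes among genes that average a log2 CPM of 5 or more and have separate groups, up to 4 members of highest level per list and up to 4 against its direction, a fixed set of markers, and members named where a list is described. Some genes that the rule takes are not reported here. Ranking by clear genes alone was added after the ranking was seen. Lists were described by counts and medians, and list sums by an exact permutation test over 35 ways to choose 3 of 7 libraries.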

Additional observations from a re-analysis of the deposited data

Results flagged for a closer look

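In 198 groups of 4 young RCAM libraries, 1 library stood apart from the other 3 for 14 values. A rate of 1 in 20 (9.9) would hold only for independent, normally distributed values. The values here were not independent, as Hbb-bs is part of the erythroid sum. Some rest on few counts, with 5 for Klhdc7a and 8 for Sall1 over the RCAM libraries. The 14 thus cannot be judged against 9.9. RCAM replicate 1 was the high one for summed erythroid transcripts (270.8 CPM), Hbb-bs (179.7 CPM), Csf3r (99.0 CPM), Plin1 (4.58 CPM) and Stmn2 (0.268 CPM), and the low one for Ccl8 (425 CPM). RCAM replicate 2 was the high one for Ly6c2 (2.51 CPM), Flt4 (0.520 CPM), Sall1 (0.173 CPM) and Klhdc7a (0.108 CPM). RCAM replicate 4 was the high one for Pdgfra (39.6 CPM), Slc12a1 (16.2 CPM), Fxyd6 (9.69 CPM) and Clstn3 (0.191 CPM).

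The contrast of RCAMs over capsule tissue differed between the aged and the young pair by edgeR's interaction test for 24 of 155 named genes. Over all genes the share was 5.05% (952 of 18856). Part of the named genes were picked for large fold changes in the same young libraries. Their young contrasts may thus be too large, and the 2 shares are not comparable. On the log2 scale, aged minus young, the difference was negative for the macrophage-side genes Ccl4 (-2.68), C4b (-1.28), Csf2ra (-1.26), F13a1 (-1.20), Mrc1 (-1.04), Alox5 (-1.03), Mertk (-1.01) and Tgfb1 (-0.79), and for Ighm (-3.95). It was positive for the fat genes Cpt1b (4.48), Acvr1c (4.01), Cox8b (3.55) and Fabp4 (1.98). Acvr1c had 3 counts in total over the young RCAM libraries. Stromal and vessel genes were positive too, with Vegfa at 2.46, Ccl11 at 2.31, Pi16 at 2.13, Mmp14 at 1.99, Dcn at 1.70, Serping1 at 1.66, Pdgfra at 1.65 and Nr2f2 at 1.55. For mt-Co1 the difference was 1.32 and for Axl 0.95. Rgs5 differed by 8.60, a fitted value that depends on the prior count because all young RCAM libraries had 0 counts. These tests lost nearly all calls with a replicate block, as given below.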

How the results depend on the processing

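The 4 counts of genes called in the young pair stayed within 1.5 times under 19 alternatives each, with 1 exception. When clear genes were fitted alone, 2525 genes were more than 4-fold lower, against 3869. That fit tested 13193 genes in place of 17491. In the main fit, 32.1% of genes that were not clear and 18.8% of clear genes were more than 4-fold lower. Genes higher ranged from 4753 to 7069 and genes lower from 5061 to 8072. Replicate numbers were not taken to pair libraries. Deviations of log2 CPM from the mean of each group correlated at -0.0163, -0.0686 and -0.00605 between same-numbered libraries. Between libraries of unlike number they correlated at -0.0297 to 0.0612. Centring within such small groups constrains these values, so they cannot decide whether libraries were paired. A fit with a replicate block called 5406 genes higher and 6521 lower, 1254 and 3061 of them beyond 4-fold, and 11832 of 13275 calls were kept in the same direction. The aged count of 12431 stayed within 1.5 times under 11 alternatives (11003 with the block). The count of genes whose contrast differed with age, 952, was 2304 by DESeq2, 3 with the block and 282 to 1594 without 1 library; the cause was not tested.

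Among values of named genes under single alternatives, 2871 of 2920 kept direction and side of the threshold, 32 lost the call, 15 gained it and 2 changed sign. The last were of Gatm, at -0.03 with library totals and -0.18 without capsule replicate 2, neither of them called; without capsule replicate 3 it was called at 0.94. The log2 ratio of summed T and NK cell transcripts changed sign at -0.22 without capsule replicate 2, -0.04 without RCAM replicate 1 and -0.03 without RCAM replicate 3, over a leave-one-out range up to 0.31. Low counts limit nerve, lymphatic and mesothelial genes in RCAMs, where single libraries moved fold changes by over 1.5 times.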
